A study of Mus musculus with 8 samples.

Results

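Transcript levels of 33 target genes of the transcription factor p53 were compared between control (iPHet) and Prmt5 knockout (iPKO) mouse embryonic stem cells. The genes were taken by symbol from a list of known p53 targets, and all 33 were found among the 38991 genes of the RNA sequencing files. Lrdd is the older symbol of Pidd1, and 9630033F20Rik that of Tigar. A level of at least 1 FPKM (fragments scaled to transcript length and library size) on average in either genotype was reached by 32 of them, and by 12462 genes in all. The exception was Fas, the death receptor gene, at 0.0776 ± 0.0948 FPKM in iPHet and 0.0303 ± 0.0366 in iPKO (SD, n = 4 each), and it was not tested.

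The cells were male and of the C57BL/6 strain, had been derived from blastocysts at embryonic day 3.5 on feeder fibroblasts, and were at a passage under 20. They were kept in 2i medium, whose inhibitors hold embryonic stem cells in an undifferentiated ground state. Both genotypes received 4-hydroxytamoxifen at 2 µM for 48 hours, the agent used to induce the deletion at Prmt5, followed by fresh medium, so the control cells carried the same exposure. The genotype name iPHet reads as heterozygous, and the labels do not say that both Prmt5 copies were intact in the control. The labels name 1 line for each genotype, PC1 for iPHet and PC4 for iPKO, as used in most experiments, so genotype and line cannot be told apart. There were 4 libraries of each genotype, and nothing in the labels says that they came from separate cultures. Any p-value given here thus reflects how far these libraries scattered, and that scatter may be technical alone.

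p53 is a transcription factor that is held at a low activity by the ubiquitin ligase Mdm2 and is released by DNA damage and other stress. It binds DNA as a tetramer, at a pair of decamers of one consensus separated by a short spacer, and switches on genes of cell cycle arrest, apoptosis, DNA repair and metabolism, together with inhibitors of its own pathway. Embryonic stem cells hold abundant p53 and are known for a weak arrest at the G1 checkpoint and a ready apoptotic or differentiation response. PRMT5 is an arginine methyltransferase of histones and of the Sm proteins of the spliceosome, and p53 is among its reported substrates.

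The promoters are shown first, with the sites in them that match the p53 consensus by letter. Known p53 targets are recognised partly by such sites, so their share among these promoters describes the list and is not independent of how it was made. Of the 33 targets, 25 matched a RefSeq promoter sequence on GRCm38.p6, which runs from 250 bases before to 50 bases after a gene's start, with 36 promoters between them. The p53 consensus decamer was searched on both strands, and a full site was a pair of decamers with a spacer of at most 13 bases. Mismatches were allowed only outside the invariant C and G of each decamer. An exact decamer was present in 10 of the 36 target promoters (27.8%), against 8.36% of all 32851 promoters. A full site with no mismatch was present in a promoter of Cdkn1a, with 0.0731% of all promoters having one. With up to 1 mismatch the promoters of Ccng1 and Rps27l were added, against 0.627% of all promoters, and with up to 2 mismatches those of Bax and Sesn1, against 4.09%. The 5 sites are printed below with 30 flanking bases where the promoter allowed them, 5′ to 3′ on the strand of the gene, with the decamers in capitals. The last lines hold Aen, Ei24 and Polk, which were called higher in iPKO and had a single exact decamer without a full site. Ercc5 and Lrdd, also called higher, had a promoter in the table with no exact decamer in this window. A match is a description of letters and not evidence of binding.
Cdkn1a, chr17:29090876-29090967, plus strand: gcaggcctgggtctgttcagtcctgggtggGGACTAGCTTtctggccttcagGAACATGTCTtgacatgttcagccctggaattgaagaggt
Ccng1, chr11:40755432-40755511, minus strand: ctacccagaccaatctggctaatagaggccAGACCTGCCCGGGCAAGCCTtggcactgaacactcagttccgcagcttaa
Rps27l, chr9:66946266-66946345, plus strand: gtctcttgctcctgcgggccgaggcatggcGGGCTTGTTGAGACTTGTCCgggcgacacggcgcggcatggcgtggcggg
Bax, chr7:45467060-45467144, minus strand: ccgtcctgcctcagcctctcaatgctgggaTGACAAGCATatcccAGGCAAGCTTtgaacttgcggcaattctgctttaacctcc
Sesn1, chr10:41887223-41887305, plus strand: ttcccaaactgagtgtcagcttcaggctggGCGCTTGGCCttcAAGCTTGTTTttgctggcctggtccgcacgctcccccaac
Aen, chr7:78895907-78895976, plus strand: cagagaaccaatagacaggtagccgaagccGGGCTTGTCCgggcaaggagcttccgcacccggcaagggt
Ei24, chr9:36797305-36797374, minus strand: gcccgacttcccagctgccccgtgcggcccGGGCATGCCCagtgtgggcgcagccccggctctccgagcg
Polk, chr13:96519379-96519437, minus strand: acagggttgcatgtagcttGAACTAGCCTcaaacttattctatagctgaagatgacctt

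The libraries of each genotype fell into pairs. Over all tested genes, libraries 1 and 3, or 2 and 4, of a genotype differed by a median of 0.0703 to 0.0789 on the log2 scale, and an odd-numbered from an even-numbered library by 0.214 to 0.236. What the numbers stand for is not given in the labels, so genotype differences are given over all 8 libraries and also in the odd and the even libraries apart. Summed FPKM was 458856 and 458690 in iPHet libraries 1 and 3 and ran from 411827 to 421412 in the others, and the absolute depth is unknown. The main fit used the values without further scaling. Prmt5 fell from 62.5 ± 10.4 FPKM in iPHet to 13.4 ± 1.56 in iPKO (SD, n = 4 each, adjusted p = 0.000171 in limma) and was lower in every iPKO than in every iPHet library. Stem cell markers were high throughout: the summed FPKM of Pou5f1, Nanog, Sox2, Zfp42, Esrrb and Klf4 was 1040 to 1279 in iPHet and 1037 to 1094 in iPKO. Of the 6, Sox2 fell 1.31-fold, with a mean of 91.8 ± 5.31 FPKM in iPHet and 70.1 ± 2.15 in iPKO (SD, n = 4 each, adjusted p = 0.00539 in limma), and Esrrb was lower in every iPKO library without being called. Of 7 feeder fibroblast markers, Col1a1, Col1a2 and Col3a1 were under 1 FPKM and Postn was at 0 in all libraries. The sum of the 7, mostly Fn1, was still 221 to 251 in iPHet and 148 to 247 in iPKO. Thy1 averaged 1.30 FPKM in iPHet and 1.09 in iPKO. Pdgfrb averaged 1.79 FPKM in the odd and 0.492 in the even iPHet libraries, and 3.25 and 0.521 in those of iPKO. Of 5 endoderm markers, Gata4 averaged 2.77 FPKM in iPHet and 2.68 in iPKO, and the other 4 averaged under 1. The 3 mesoderm markers T, Mixl1 and Mesp1 averaged under 1 FPKM. The sum of 4 neuroectoderm markers (Pax6, Sox1, Nes and Olig2) was 20.4 to 23.8 in iPHet and 15.4 to 16.6 in iPKO. Olig2 and Nes, most of that sum, fell 1.39-fold and 1.89-fold, while Sox1 was 1.69-fold higher with all libraries apart (limma adjusted p = 0.0524) and Pax6 was under 1 FPKM. The sum of 5 trophoblast markers was 24.7 to 108 in iPHet and 26.0 to 118 in iPKO, since the keratin gene Krt8 was 4.36 and 4.17 times higher in the odd than in the even libraries of the respective genotypes, with Cdx2 and Elf5 under 1 FPKM and Tpbpa at 0. The part of these differences in the results was not tested. In bulk RNA, fewer cells expressing a gene and less RNA per cell cannot be told apart.

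Among the 32 tested p53 targets, 7 rose and 1 fell in iPKO, and none by 2-fold. The 7 were the death genes Aen, Lrdd, Pmaip1 and Ei24, the repair genes Ercc5 and Polk and the cyclin gene Ccng1, and the gene that fell was the kinase gene Plk3. The other 24 were not called (limma on log2(FPKM + 1), Benjamini-Hochberg adjusted p under 0.05 over all 12462 genes). Among all tested genes 6.3% were called higher and 9.53% lower, or 785 and 1188 genes. Scaling each library by its median ratio gave 961 and 859. The median log2 difference of the tested targets was 0.18, and that of all tested genes -0.04. With the correlation within library pairs estimated (0.839), none of the 8 calls was kept, the smallest adjusted p being 0.0653 for Ercc5 and 0.0688 for Aen, and the marker genes Sox2, Olig2 and Nes were not called either. In that fit 7 targets were higher and 1 lower at an unadjusted p under 0.05 (all tested genes 4.9% and 7.73%), and 23 genes in all were called higher and 29 lower.

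**Figure D1:**
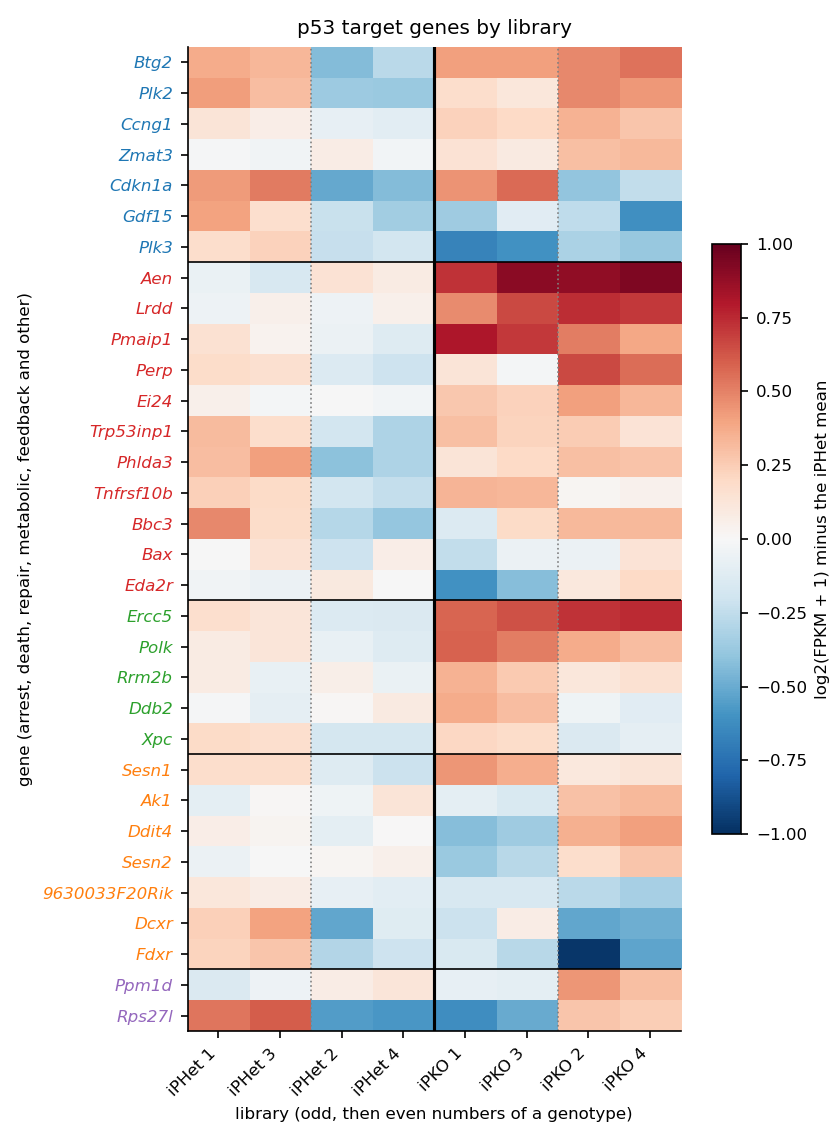
Heat map of the 32 tested p53 targets (rows, grouped by role) in the 8 libraries (columns, odd before even within a genotype). Colour is log2(FPKM + 1) minus the gene's mean in iPHet, up to 0.972 in size. Libraries 1 and 3, and 2 and 4, resemble each other in each genotype, and Rps27l changes side between odd and even libraries in opposite ways in iPHet and iPKO.

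Single libraries were compared next. The iPKO libraries lay all above the iPHet libraries for 10 of the 32 targets (10.1% of all tested genes) and all below for 2 (15.0%). Taking odd and even libraries apart, the 2 iPKO libraries were above the 2 iPHet libraries in both comparisons for 12 targets (17.4% of all tested genes) and below in both for 3 (25.1%). For 8 targets the directions were opposite (16.5%). Of these, 7 were lower in the odd and higher in the even libraries (9.41% of all tested genes) and 1 the other way (7.13%). The median difference was 0.01 in the odd libraries, where that of all tested genes was -0.05, and 0.29 in the even libraries, where it was -0.02. The difference was positive for 17 of 32 targets in the odd libraries (42.6% of all tested genes) and for 26 of 32 in the even libraries (46.3%).

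Arrest targets went both ways: 1 of the 7 rose, 1 fell and 5 were not called, when 6.3% of all tested genes rose and 9.53% fell. Their median log2 difference was 0.21, and that of all tested genes -0.04. Cdkn1a (ENSMUSG00000023067), which encodes the p21 inhibitor of cyclin-dependent kinases and is the textbook p53 target, was the most abundant of the 33 in iPHet. It lies on mm10 chr17:29090979-29100722. Its level in iPHet libraries 1 to 4 was 152, 79.3, 163 and 83.5 FPKM, and in iPKO libraries 1 to 4 it was 155, 85.7, 168 and 95.5 FPKM. Over all libraries the 2 genotypes overlapped, although both even iPKO libraries lay above both even iPHet libraries. The odd libraries were the high ones in both genotypes, 1.93-fold above the even in iPHet and 1.78-fold in iPKO. The genotype difference was 0.09 on the log2 scale (SE 0.32, limma adjusted p = 0.871), 0.03 in the odd and 0.15 in the even libraries. The full p53 site free of mismatches lay in 1 of its promoter sequences, and its bearing on these levels was not tested.

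Ccng1, encoding cyclin G1, a partner of the Mdm2 feedback loop, lies on chr11:40748552-40755311. Its levels were 117, 101, 112 and 99.2 FPKM in iPHet and 125, 136, 123 and 130 in iPKO. All iPKO libraries lay above all iPHet libraries, and the gene rose 1.20-fold (log2 difference 0.26, SE 0.07, limma adjusted p = 0.0439). The rise was 1.08-fold in the odd and 1.33-fold in the even libraries. Plk3, a stress-responsive polo-like kinase, lies on chr4:117128655-117133963. It was at 10.7, 7.87, 11.2 and 8.16 FPKM in iPHet and at 5.54, 7.35, 5.84 and 6.97 in iPKO. The groups did not overlap, but the even libraries almost met, and the 1.48-fold lower level (log2 difference -0.49, SE 0.14, limma adjusted p = 0.0436) was 1.93-fold in the odd and 1.12-fold in the even libraries. Ccng1 was called in 1 of the 8 fits that left out a library, that without iPHet 1, and otherwise reached an adjusted p of up to 0.107. Plk3 was called in 1 of 8, that without iPHet 2, and otherwise reached up to 0.105. With the replicate number as a block, the limma adjusted p was 0.0588 for Ccng1 and 0.0862 for Plk3, and with no filter on low values 0.0535 and 0.0712. Plk3 also missed the threshold with quantile normalization (0.0596) and median-ratio scaling (0.0508).

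The other arrest targets were not called. Zmat3, a zinc finger RNA-binding protein, was higher in all iPKO libraries, at 36.7 ± 1.35 FPKM in iPHet and 42.8 ± 3.47 in iPKO (SD, n = 4 each, adjusted p = 0.0712 in limma). It was called with the replicate block (0.0383), but not with the correlation within library pairs estimated (limma adjusted p = 0.491). Btg2, an antiproliferative factor, was at 19.9, 11.0, 19.4 and 12.4 FPKM in iPHet and 20.5, 21.6, 20.5 and 22.6 in iPKO. The iPKO libraries were thus alike while the even iPHet libraries were low, and the adjusted p was 0.129. Plk2, a polo-like kinase related to Plk3, was at 40.9, 23.3, 37.9 and 23.2 FPKM in iPHet and 34.4, 42.6, 32.9 and 41.2 in iPKO. It was lower in iPKO among the odd and higher among the even libraries. Gdf15, a secreted stress cytokine, was at 5.76 ± 1.63 FPKM in iPHet and 4.30 ± 0.757 in iPKO (SD, n = 4 each, adjusted p = 0.252 in limma).

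Of the 11 tested death targets, the longest of the lists by role, 4 rose, none fell and 7 were not called, with a median log2 difference of 0.23. Among all tested genes 6.3% rose and 9.53% fell, with a median of -0.04. At an unadjusted p under 0.05, 4 were higher and none lower in the limma fit, when 12.5% of all tested genes were higher and 18.9% lower by that measure. In the even libraries all 11 differences were positive (46.3% of all tested genes), and in the odd libraries 6 were (42.6%). The largest rise among all targets was that of Aen (ENSMUSG00000030609, chr7:78895854-78911209), an apoptosis-enhancing nuclease. Its levels were 15.3, 17.8, 14.2 and 17.0 FPKM in iPHet and 27.1, 30.6, 30.8 and 31.6 in iPKO. Every iPKO library was clearly above every iPHet library, and the mean rose 1.86-fold from 16.1 ± 1.64 to 30.04 ± 2.01 FPKM (SD, n = 4 each; log2 difference 0.86, SE 0.09, limma adjusted p = 0.000991). It was 1.96-fold in the odd and 1.78-fold in the even libraries. Of the fits that averaged each library pair, 1 called Aen (limma adjusted p = 0.0396) and no other target, the one that was limited to protein-coding genes and had a term for odd and even.

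Lrdd (chr7:141438113-141444025) encodes PIDD, the death domain protein of the caspase-2 platform. It was at 24.4, 24.4, 26.4 and 26.3 FPKM in iPHet and 35.6, 43.1, 40.8 and 42.0 in iPKO. The groups were apart in every library, with a 1.59-fold rise (log2 difference 0.65, SE 0.07, limma adjusted p = 0.00147). Pmaip1 (ENSMUSG00000024521) encodes Noxa, a BH3-only protein that binds Mcl1. Its levels were 37.9, 32.5, 34.8 and 30.9 FPKM in iPHet and 60.1, 48.7, 55.9 and 44.6 in iPKO, so that the even libraries were the lower ones in both genotypes. The rise was 1.54-fold (log2 difference 0.60, SE 0.11, limma adjusted p = 0.00908). Ei24 (chr9:36779159-36797361), a protein of the endoplasmic reticulum induced by p53 in cell death, was at 70.9, 68.4, 67.5 and 67.1 FPKM in iPHet and 82.8, 91.3, 80.3 and 86.5 in iPKO. Here the spread was narrow, and a rise of 1.24-fold was called (log2 difference 0.31, SE 0.06, limma adjusted p = 0.0109). Aen, Lrdd, Pmaip1 and Ei24 kept their calls in all 8 fits that left out a library and with the replicate block. Leaving out a library keeps its near-identical partner, however. With the correlation within library pairs estimated, none of them was called (limma adjusted p from 0.0688 for Aen to 0.266 for Ei24).

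The remaining death targets were not called over 8 libraries. Bax, which permeabilizes the outer mitochondrial membrane, was at 104, 89.5, 115 and 109 FPKM in iPHet and 87.2, 99.6, 99.7 and 114 in iPKO. Its groups overlapped and the log2 difference was -0.06 (SE 0.10, limma adjusted p = 0.759). Bbc3, which encodes the BH3-only protein Puma, was at 7.72, 4.12, 6.08 and 3.78 FPKM in iPHet and 4.66, 6.82, 6.11 and 6.81 in iPKO. Its genotypes overlapped in the odd libraries, and iPKO was 1.73-fold higher in the even ones. Among the 3 BCL2 family genes here, Pmaip1 was therefore called and Bax and Bbc3 were not. Trp53inp1, a nuclear protein that promotes p53 phosphorylation, was at 49.5, 34.7, 44.9 and 31.7 FPKM in iPHet and 48.9, 47.4, 46.4 and 43.6 in iPKO (limma adjusted p = 0.293). It differed by 0.01 in the odd and 0.45 in the even libraries.

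Perp, a tetraspan membrane protein, was at 10.4, 8.16, 10.2 and 7.71 FPKM in iPHet and 9.98, 14.9, 8.91 and 13.8 in iPKO. The even iPKO libraries were the high ones, 1.81-fold above the even iPHet libraries, while the odd were 1.09-fold lower than theirs. Phlda3, an inhibitor of Akt signalling, had the same order, with 1.15-fold lower odd and 1.59-fold higher even iPKO libraries. Eda2r, a receptor of the TNF receptor family, had 1.45-fold lower odd and 1.09-fold higher even ones. Tnfrsf10b, the TRAIL receptor, was higher in iPKO among the odd (1.09-fold) and among the even libraries (1.19-fold). It was called when the replicate number was a block (limma adjusted p = 0.0411) and not without it (0.400). With the correlation within library pairs estimated it was not called either (limma adjusted p = 0.690).

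**Figure D2:**
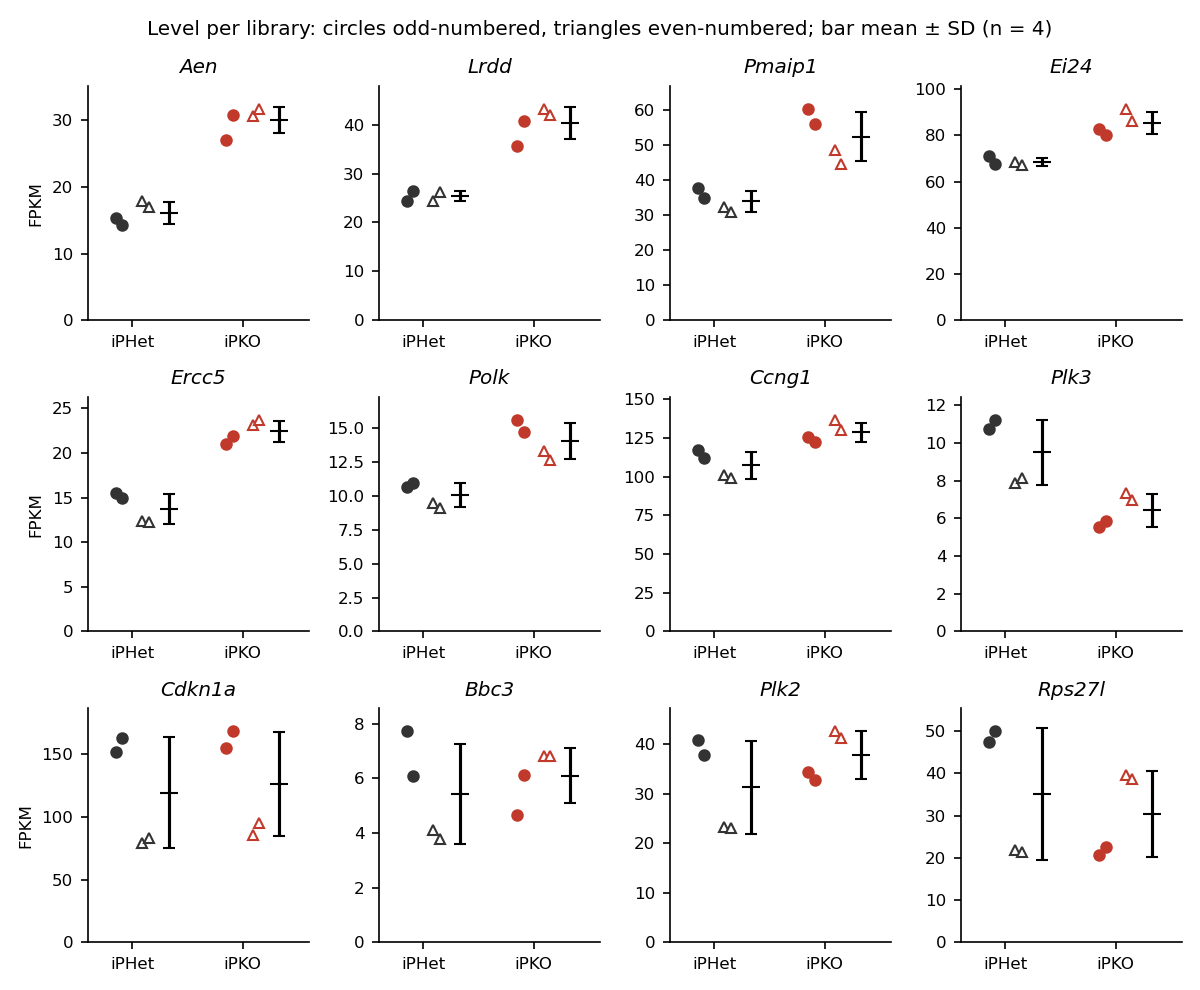
FPKM per library of 12 p53 targets on linear axes from 0, with odd-numbered libraries as filled circles, even-numbered ones as open triangles and the mean ± SD (n = 4) of each genotype as a bar. Aen, Lrdd, Pmaip1, Ercc5 and Polk have separate genotypes in both odd and even libraries, while Cdkn1a is split by library number at overlapping levels in both genotypes.

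Repair targets had positive differences in 5 of 5 cases in the odd libraries (42.6% of all tested genes) and in 4 of 5 in the even ones (46.3%). Of the 5, 2 rose, none fell and 3 were not called, when 6.3% of all tested genes rose and 9.53% fell. At an unadjusted p under 0.05 in the limma fit 3 were higher and none lower (all tested genes 12.5% and 18.9%). Ercc5 (ENSMUSG00000026048, chr1:44147847-44181260) encodes XPG, an endonuclease of nucleotide excision repair. It was at 15.5, 12.3, 14.9 and 12.2 FPKM in iPHet and 21.0, 23.2, 21.9 and 23.6 in iPKO. The groups were apart, the even libraries being the lower ones in iPHet and the higher ones in iPKO. The rise was 1.63-fold (log2 difference 0.67, SE 0.09, limma adjusted p = 0.00304), 1.41-fold in the odd and 1.91-fold in the even libraries. Polk (chr13:96480689-96542485) encodes DNA polymerase kappa, which copies past damaged bases. It was at 10.7, 9.45, 11.0 and 9.10 FPKM in iPHet and 15.6, 13.3, 14.7 and 12.6 in iPKO. Every iPKO library was above every iPHet library, and the rise was 1.40-fold over all libraries and in the odd and the even ones apart (log2 difference 0.44, SE 0.09, limma adjusted p = 0.0138). Both repair genes kept their calls in all 8 fits that left out a library and with the replicate block. Each library left out still had its near-identical partner in the fit. With the correlation within library pairs estimated, neither gene was called (limma adjusted p = 0.0653 for Ercc5 and 0.206 for Polk).

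Rrm2b, the p53-inducible subunit of ribonucleotide reductase, was higher in all iPKO libraries, at 8.23 ± 0.521 FPKM in iPHet and 9.73 ± 0.792 in iPKO (SD, n = 4 each), but was not called (limma adjusted p = 0.0884). It overlaps the pseudogene Gm3362, which was at 1.34 FPKM in iPKO, so that reads of the pair could be exchanged. Ddb2, a damage sensor of nucleotide excision repair, was 1.35-fold higher in the odd and 1.10-fold lower in the even iPKO libraries, without overlap in either. It shares 2527 bases with Acp2 on the opposite strand, and since strand is not stated its reads are uncertain. Xpc, the other damage sensor, was at 12.7 ± 1.92 and 13.02 ± 1.76 FPKM (SD, n = 4 each), with a log2 difference of 0.04 (SE 0.13, limma adjusted p = 0.861). The odd libraries were above the even by 1.30-fold in iPHet and 1.26-fold in iPKO, which was more than the genotypes differed.

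Metabolic targets showed no call among 7, when 6.3% of all tested genes rose and 9.53% fell. At an unadjusted p under 0.05 in the limma fit none was higher and 2 were lower (all tested genes 12.5% and 18.9%). Their median log2 difference was -0.05 (all tested genes -0.04). It was positive for 1 of 7 in the odd and 4 of 7 in the even libraries (all tested genes 42.6% and 46.3%). The 2 lower at an unadjusted p were Fdxr, the mitochondrial reductase that passes electrons to ferredoxin, and 9630033F20Rik, the phosphatase TIGAR that slows glycolysis. 9630033F20Rik was at 35.7, 31.0, 34.8 and 30.6 FPKM in iPHet and 29.4, 27.2, 29.4 and 26.0 in iPKO. Every iPKO library was below every iPHet library, with a log2 difference of -0.23 (SE 0.07, limma adjusted p = 0.0712). Fdxr was at 8.57 ± 1.92 FPKM in iPHet and 5.90 ± 1.61 in iPKO (SD, n = 4 each, adjusted p = 0.151 in limma). With the replicate block both were called lower, at 0.0150 for 9630033F20Rik and 0.0152 for Fdxr, and Sesn1 higher, at 0.0197. That fit takes the near-identical libraries of a pair as separate. With the correlation within library pairs estimated, none of these genes was called. The limma adjusted p was then 0.418 for 9630033F20Rik, 0.614 for Fdxr and 0.550 for Sesn1.

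Sesn1, a sestrin that restrains mTORC1, was at 9.13 ± 1.42 FPKM in iPHet and 11.1 ± 1.42 in iPKO (SD, n = 4 each, adjusted p = 0.193 in limma), and was higher in iPKO in both odd and even libraries. Its paralog Sesn2 differed by -0.05 on the log2 scale over all libraries, by -0.29 in the odd and by 0.19 in the even. Ddit4, an inhibitor of mTORC1 known as REDD1, had the widest split of the metabolic genes. It was at 13.2, 11.6, 12.8 and 12.6 FPKM in iPHet and 9.06, 16.4, 9.59 and 17.0 in iPKO. The iPHet libraries were nearly equal, and the iPKO libraries lay below them when odd and above them when even. Ak1, an adenylate kinase, and Dcxr, a xylulose reductase, had log2 differences of 0.09 and -0.29 (limma adjusted p = 0.664 and 0.409), and Ak1 overlaps Eng by 211 bases.

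The last 2 targets were not called. Ppm1d, the phosphatase WIP1 that switches p53 signalling off, was at 9.45, 11.2, 10.2 and 11.6 FPKM in iPHet and 9.92, 14.7, 9.83 and 13.3 in iPKO. The genotypes overlapped in the odd libraries and were apart in the even ones, and the limma adjusted p was 0.518. Rps27l, a ribosomal protein paralog that p53 induces, had the largest split of all 33. It was at 47.4, 21.7, 49.9 and 21.3 FPKM in iPHet and 20.7, 39.5, 22.6 and 38.7 in iPKO. The odd libraries were high in iPHet and low in iPKO. The level in iPKO was 2.25-fold lower in the odd and 1.81-fold higher in the even libraries, so the difference over all 8 was -0.15 (SE 0.35, limma adjusted p = 0.808). Reads of so close a ribosomal paralog can be exchanged with Rps27, and its level is uncertain. The 71 tested cytosolic ribosomal protein genes moved in the same directions, with a median difference of -0.44 in the odd and 0.37 in the even libraries, and 63 of them were apart in those opposite directions. Over all libraries, limma called none of these 71, and at an unadjusted p under 0.05 none was higher and 1 was lower.

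**Figure D3:**
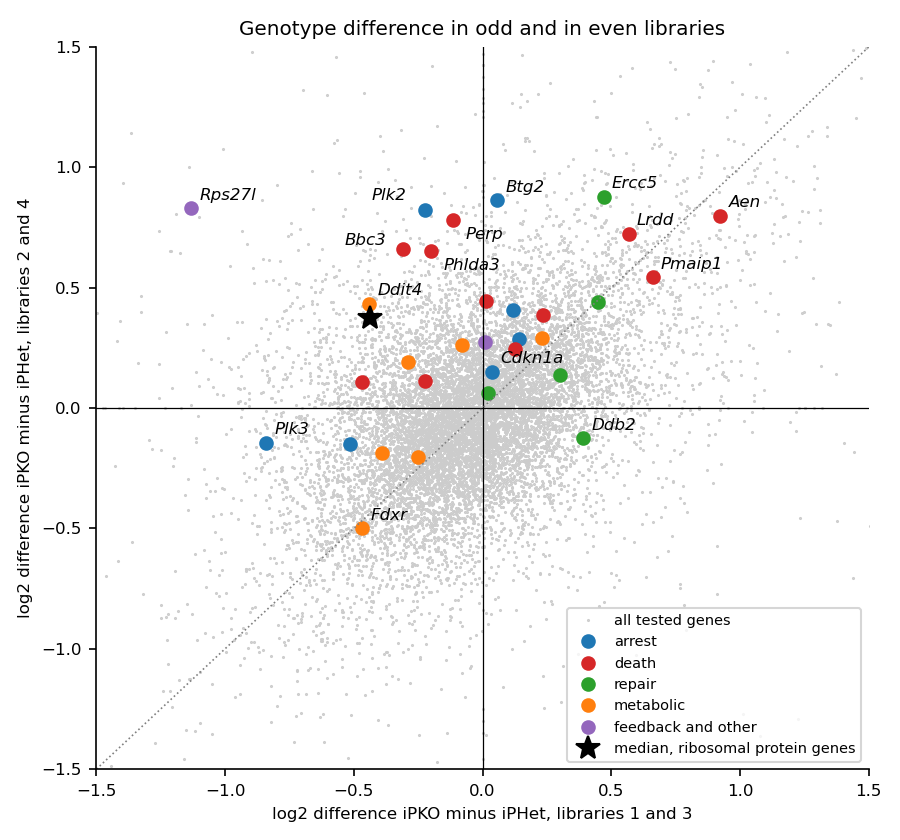
Log2 genotype difference (iPKO minus iPHet) of each p53 target in libraries 1 and 3 (x axis) against libraries 2 and 4 (y axis), coloured by role over all tested genes in grey, with the median of the ribosomal protein genes as a star. Aen, Lrdd, Pmaip1 and Ercc5 lie high on both axes, Rps27l lies at -1.13 and 0.83, and 319 grey genes lie beyond the axes.

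The genotype difference itself differed between odd and even libraries for 15 of the 32 targets in a limma interaction test, 14 with a larger value in the even libraries (15.6% of all tested genes) and 1, Ddb2, with a smaller one (12.9%). Since its spread is that between near-identical libraries, it may be technical. The largest were those of Rps27l, at 1.96 on the log2 scale (SE 0.07, adjusted p = 5.78e-05), Plk2 at 1.04 (SE 0.07, adjusted p = 0.000438) and Bbc3 at 0.97 (SE 0.19, adjusted p = 0.0148). Perp followed at 0.89 and Ddit4 at 0.87. Among the genes called higher, Aen, Lrdd, Pmaip1, Ei24 and Polk did not pass this test, whereas Ercc5 (0.41) and Ccng1 (0.29) did. The odd and even libraries differed within each genotype as well. In iPHet both odd libraries were above both even ones for 21 of 32 targets and below for 5, when all tested genes gave 44.7% and 30.2%. In iPKO they were above for 11 and below for 17, when all tested genes gave 42.1% and 33.7%. The median ratio of odd to even libraries was 1.20 in iPHet and 0.923 in iPKO for the tested targets. For all tested genes it was 1.05 and 1.02. Cdkn1a and Fdxr were the targets over 1.5-fold higher in the odd libraries of iPKO.

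**Figure D4:**
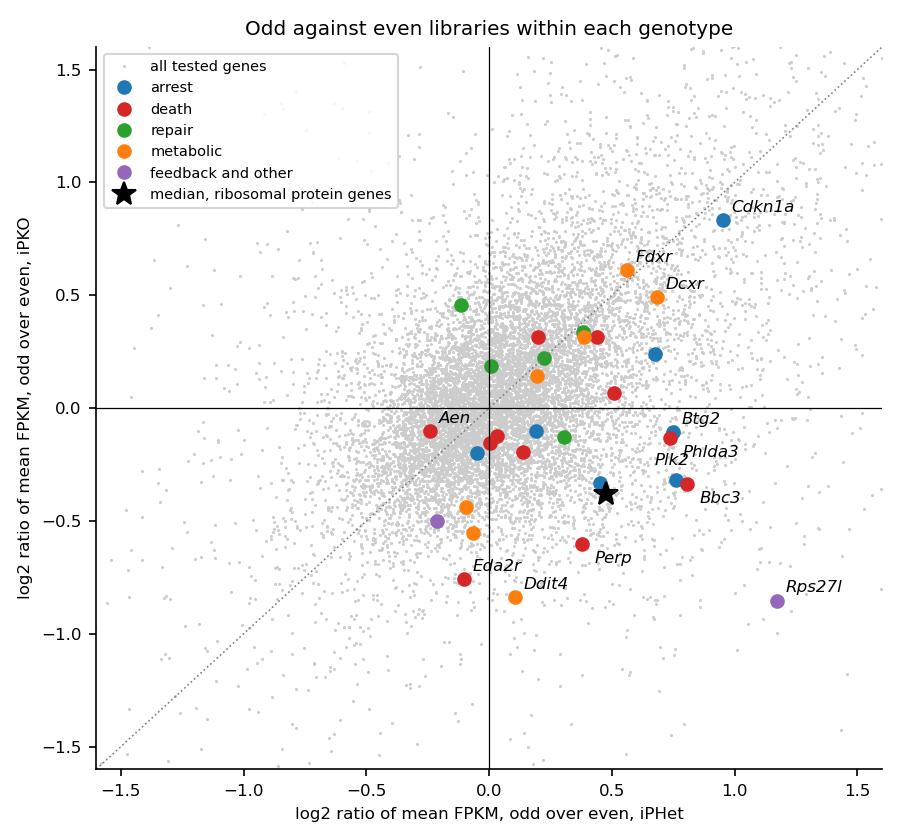
Log2 ratio of odd to even libraries within iPHet (x axis) and within iPKO (y axis) for each p53 target, coloured by role, over all tested genes in grey. Cdkn1a lies far to the upper right, high in the odd libraries of both genotypes, Rps27l lies to the lower right, with ratios of 2.26 and 0.554, and 539 grey genes lie beyond the axes.

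Of the targets, 6 are also reported targets of the stress factors ATF4 or CHOP (Sesn2, Ddit4, Gdf15, Pmaip1, Bbc3 and Tnfrsf10b). Of these 1 was called higher (Pmaip1), when 6.3% of all tested genes were. Their median log2 difference was -0.30 in the odd and 0.34 in the even libraries, and that of all tested genes -0.05 and -0.02. Among the 24 tested genes of a list of p53 regulators, 2 rose, 2 fell and 20 were not called, which is 8.33% in each direction against 6.3% and 9.53% of all tested genes. With the estimated correlation within library pairs none of the 4 was called, at limma adjusted p-values of 0.0962 for Mdm2, 0.347 for Trp73, 0.219 for Chek2 and 0.539 for Brd7, and the targets' own calls were lost in that fit as well. Trp53 itself was at 138 ± 13.1 FPKM in iPHet and 153 ± 22.5 in iPKO (SD, n = 4 each, adjusted p = 0.471 in limma). Mdm2, the ubiquitin ligase that degrades p53 and is also its target, rose from 66.4 ± 10.2 to 100.0 ± 3.91 FPKM (SD, n = 4 each), 1.29-fold in the odd and 1.79-fold in the even libraries. Trp73, the p53 family member p73, rose from 3.92 ± 0.382 to 6.78 ± 1.80 FPKM (SD, n = 4 each). The damage kinase gene Chek2 fell 1.39-fold, from 33.5 ± 3.10 to 24.1 ± 2.09 FPKM, and Brd7, a chromatin reader that binds p53, fell 1.19-fold. Mdm4, the Mdm2 partner that restrains p53, was at 49.3 ± 3.89 and 52.1 ± 5.90 FPKM and was not called. It was 1.23-fold higher in the odd and 1.11-fold lower in the even iPKO libraries, without overlap in either.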

How the data were processed

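RNA sequencing of 8 mouse embryonic stem cell libraries, 4 iPHet and 4 iPKO, was analysed from gene-level FPKM values that the authors deposited for each library, beside a status and lower and upper bounds, per the file headers. Reads were paired, of 100 bases, per the labels' protocols. Per the submitters' processing notes, Trimmomatic was used and the genome was mm10. Which aligner and FPKM program were used, with their versions and strand setting, is not given in the sources used here. The FPKM bounds that the authors deposited were not used, because 2553 to 3635 rows per library had a value outside them. Of 38991 gene identifiers, 19 had several loci, which were summed. Because the files hold FPKM, no count test was run.

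Values were log2(FPKM + 1), which understates the changes of low genes. Genes that averaged 1 FPKM or more in iPHet or in iPKO were tested over all 8 libraries with limma 3.58.1 (R 4.3.3, intensity trend) and no covariate, and an adjusted p under 0.05 over all 12462 genes was a call. The interaction of genotype with odd and even numbers was fitted the same way. Fold values are ratios of mean FPKM. The fits were tested on simulated data with independent noise in each library. Those data held no library pairs, so the test cannot tell how the pairs affect false calls here. The targets, their roles and the other lists were chosen with earlier results of these data known. Per-library values are given for called targets, for Cdkn1a, Bbc3, Bax and Trp53inp1, for the 4 with the largest interaction, and for the smallest p in each role. Those of Btg2 and Ddit4 were added after their values were seen.

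Deviations from the group means correlated between same-numbered iPHet and iPKO libraries at 0.104, 0.162, 0.204 and 0.107, all over the limit of 0.1 taken for paired numbers. The labels give no such pairing. Other pairs of equal parity gave 0.077 to 0.124, so these values do not set equal numbers apart from equal parity. The fit with the number as a block is printed where it changed a call. Other fits changed the pseudocount, filter, scaling, library pairs and libraries used. Symbols and positions are those of the files. GENCODE vM21, which held 96.0% of identifiers, gave gene types and overlaps.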

Additional observations from a re-analysis of the deposited data

Results flagged for a closer look

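For 15 of the 32 tested targets the genotype difference (iPKO minus iPHet, log2) differed between even and odd libraries in the limma interaction test. Among all tested genes 28.5% passed that test. Its spread is that between near-identical libraries. Values are the difference in the even minus that in the odd libraries. Among arrest targets it was 1.04 for Plk2, 0.81 for Btg2, 0.70 for Plk3 and 0.29 for Ccng1. Among death targets it was 0.97 for Bbc3, 0.89 for Perp, 0.85 for Phlda3, 0.58 for Eda2r and 0.43 for Trp53inp1. Repair targets went both ways, with 0.41 for Ercc5 and -0.52 for Ddb2. Metabolic targets gave 0.87 for Ddit4, 0.48 for Sesn2 and 0.34 for Ak1, and the ribosomal paralog Rps27l gave 1.96. No target had a single library far from the other 3 of its genotype by Dixon's criterion. A gene whose libraries split into odd and even pairs can hardly meet it, so it tells little about outlying libraries.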

How the results depend on the processing

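Over all 8 libraries 7 targets were called higher and 1 lower, with 785 and 1188 genes in all. Targets called lower numbered 0 with no filter on low values, with quantile normalization and with median-ratio scaling, where Plk3 lost its call, and 0 to 1 when single libraries were left out. With the replicate block 9 targets were higher and 2 lower (all genes 1355 and 2072), Ccng1 and Plk3 losing and Zmat3, Tnfrsf10b, Sesn1, Fdxr and 9630033F20Rik gaining a call. An odd/even term gave 11 and 3 (all genes 1908 and 2821). Fits that respect the library pairs called few genes. Averaging pairs gave 0 and 0 targets (all genes 5 and 2), with a term 0 and 0 (4 and 2), with protein-coding genes alone as well 1 and 0 (81 and 117), and the estimated correlation 0 and 0 (23 and 29). At an unadjusted p under 0.05 in limma these 4 fits had 5, 5, 6 and 7 targets higher and 0, 1, 2 and 1 lower, when 3.85%, 6.5%, 7.81% and 4.9% of all genes were higher and 5.18%, 9.4%, 12.5% and 7.73% lower. They have fewer samples or less independent ones. The odd libraries alone called 10 targets higher and 10 lower (all genes 2266 higher and 3434 lower), and the median of the targets moved to 0.0118. The even libraries alone called 21 higher and 1 lower (all genes 2177 and 2755). Signs against the 8-library fit turned for 5 targets in the odd and 6 in the even libraries. Called there were Plk2 (-0.22) and Phlda3 (-0.20) in the odd and Sesn2 (0.19), Ddit4 (0.43) and Rps27l (0.83) in the even. Not called were Bbc3 (-0.31), Perp (-0.12) and Ak1 (-0.08) in the odd and Bax (0.11), Eda2r (0.11) and Ddb2 (-0.13) in the even. Leaving out single libraries gave 522 to 591 genes higher and 742 to 861 lower. The interaction count was 12 to 15 in its alternatives. Depth is unknown, and the number of libraries limits the precision.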
